A study of Mus musculus with 15 samples.

Results

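OpB6D2 is a parthenogenetic mouse embryonic stem (ES) cell line, and it was set against NmB6D2, an ES line from fertilised embryos. The comparison was chosen by the array titles: 3 arrays of OpB6D2 and 3 of NmB6D2, 6 of the 15 Affymetrix arrays of the series, each of which measures mouse transcripts with probe sets. OpB6D2-SNU-1 was established by activating ovulated oocytes of B6D2F1 females, the offspring of C57BL6 females and DBA2 males. NmB6D2-SNU-1 came from natural mating of a C57BL6 female with a DBA2 male. A further 9 arrays, used for context, covered R1 (129S1/SvImJ crossed with 129X1/SvJ, bought in), and FpB6D2 and FpB6CBA, parthenogenetic lines from oocytes of B6D2F1 and B6CBAF1 follicles grown in vitro. Each line was a single derivation, and the labels do not say that its 3 arrays came from separate cultures, so p values measure the spread between arrays only.

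In a parthenogenetic embryo an oocyte starts to develop without sperm, so both chromosome sets are maternal and a Y chromosome cannot be present. Genes that carry a parental imprint are read from only 1 parental copy, and their dosage can therefore differ from that of a fertilised embryo. Mouse ES cells also move between a naive state, like the early inner cell mass, and states closer to the later epiblast or to trophoblast, and these states differ in adhesion, metabolism and germ-line gene expression. Oocytes of B6D2F1 females carry recombined C57BL6 and DBA2 chromosomes, whereas NmB6D2, by its title, holds an intact set of each, so genotype and mode of origin cannot be told apart here.

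All 8 ES cell markers on the list used to check the cells were measured in both lines, with means between 8.53 and 13.45 log2 units in OpB6D2 and between 8.69 and 13.41 in NmB6D2. The Y-linked Eif2s3y had a mean of 3.35 in OpB6D2 and 8.61 in NmB6D2, so the lines also differ in sex chromosomes. Array pairs within OpB6D2 correlated at 0.996 to 0.997 across probe sets, pairs within NmB6D2 at 0.998 and pairs between the lines at 0.984 to 0.985, where probe sets are not independent replicates. The median SD between the 3 arrays of a line, over autosomal genes, was 0.085 log2 units in OpB6D2 and 0.069 in NmB6D2. Values are the authors' normalised log2 intensities, so 1 unit is a 2-fold difference, and a mean below 3.864, the median of all values, was treated as too low for an exact fold. In bulk RNA from a culture, fewer cells of a type and less RNA per cell cannot be told apart.

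On the autosomes 654 of 12373 tested genes (5.29%) were called, at an adjusted p under 0.05 (limma, Benjamini-Hochberg) with at least a 2-fold difference. The calls were split almost evenly, with 339 genes (2.74%) higher and 315 (2.55%) lower in OpB6D2, and the median difference over all autosomal genes was -0.01. The 3 arrays of each line did not overlap for any called gene. They did not overlap for 7539 autosomal genes (60.9%) either, and 6051 (48.9%) passed the adjusted p without a fold minimum, so small differences between these lines were widespread and the fold minimum set the number of calls. Differences of at least 3 log2 units were seen for 6 genes that were higher and 9 that were lower. X-linked genes, which are not described further, had a median of 0.50.

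**Figure D1:**
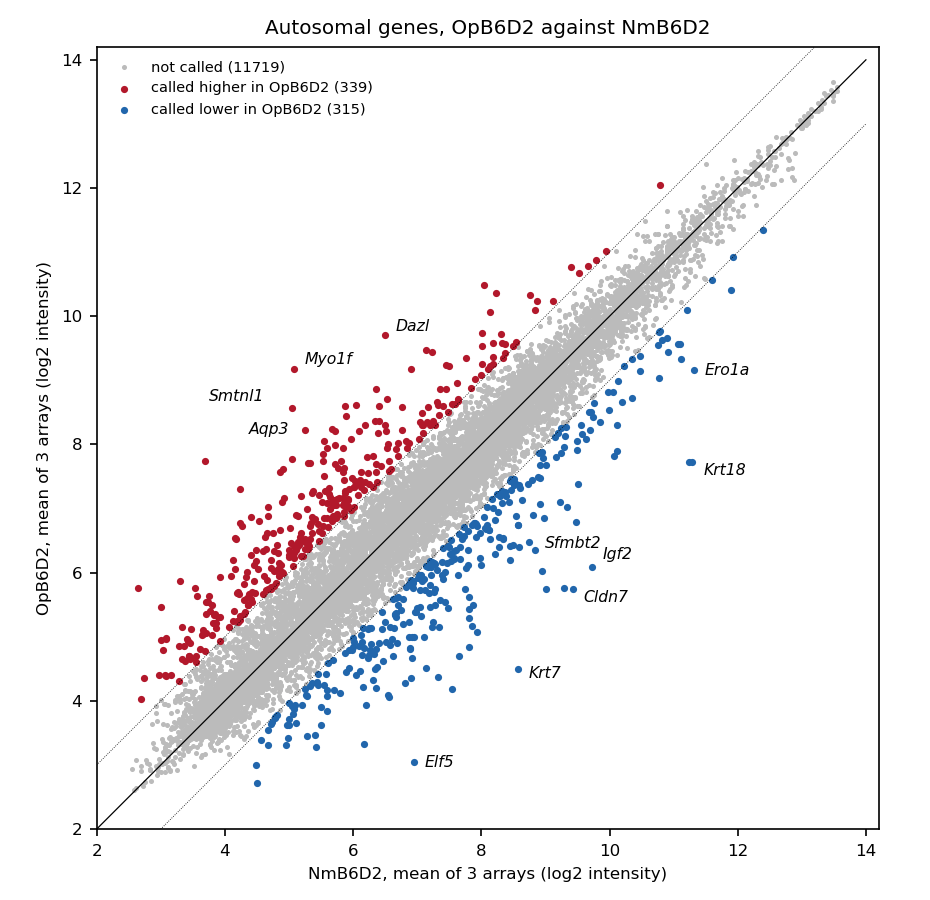
Mean log2 intensity of each autosomal gene on the 3 OpB6D2 arrays (vertical axis) against its mean on the 3 NmB6D2 arrays (horizontal axis). Red points are the 339 genes called higher and blue points the 315 called lower in OpB6D2; the solid line marks equal values and the dotted lines a 2-fold difference.

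The plot of line means shows the calls spread over most of the range of intensity, with Krt7, Elf5, Cldn7 and Igf2 farthest below the line of equal values. Keratin and other epithelial genes were among the falls. A list of keratins, claudins and epithelial adhesion genes had 47 tested members. Of these, 25 fell (53.2%, against 2.55% of all autosomal genes) and 0 rose in OpB6D2 by limma, with a median of -1.02. Without the fold minimum 38 passed the adjusted p below 0 and 1 above it, Krt42 was the highest at 0.68, and 1 member was called higher with averaged probe sets. The mean level of the 47 genes was 6.22 to 6.25 on the OpB6D2 arrays, against 7.61 to 7.64 on the NmB6D2 arrays.

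Keratins 7, 8, 18 and 19 build the intermediate filaments of simple epithelia. Krt7 had 4.57, 4.58 and 4.34 log2 units on the OpB6D2 arrays, against 8.53, 8.58 and 8.60 on the NmB6D2 arrays, a 16.9-fold fall (-4.08 ± 0.11 SE, adjusted p = 5.7e-12). For Krt18 the values were 7.58, 7.97 and 7.61 in OpB6D2 and 11.23, 11.25 and 11.35 in NmB6D2 (-3.56 ± 0.10 SE). Krt8, its filament partner, had 7.67, 8.03 and 7.49 in OpB6D2 and 11.18, 11.17 and 11.36 in NmB6D2 (-3.51 ± 0.12 SE), and both other probe sets of Krt8 fell as well (-3.41 and -3.28). The lowest NmB6D2 array stood at least 3 units above the highest OpB6D2 array for each of these 3 genes. Krt19 showed the same order, at 5.61, 5.99 and 5.67 in OpB6D2 and 9.29, 9.29 and 9.30 in NmB6D2 (-3.54 ± 0.10 SE). Among keratins of stratified epithelia, Krt14 and Krt5 were not called, at -0.27 and 0.03.

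Tight junctions seal neighbouring epithelial cells, and claudins form their strands. Cldn7 had 5.73, 5.75 and 5.75 in OpB6D2 and 9.46, 9.46 and 9.38 in NmB6D2, a 12.9-fold fall (-3.69 ± 0.08 SE, adjusted p = 8.3e-13). Cldn6 stood at 5.90, 5.61 and 5.72 in OpB6D2, against 8.89, 9.11 and 9.05 in NmB6D2 (-3.27 ± 0.08 SE, 9.67-fold). Tjp3, the scaffold protein ZO-3, stood at 5.09, 5.30 and 5.12 in OpB6D2 and 7.70, 7.94 and 7.93 in NmB6D2 (-2.69 ± 0.09 SE). Arrays of the lines were well apart for all 3 junction genes, and no called gene had overlapping arrays. Tjp1, which encodes the related scaffold ZO-1, was not called (-0.40). Of the genes that serve epithelia in other ways, Lad1, a basement membrane anchor, was 7.73-fold lower at 4.76, 4.57 and 4.78 in OpB6D2 and 7.66, 7.71 and 7.60 in NmB6D2. Ap1m2, a subunit of the adaptor complex that sorts proteins to the basolateral membrane, was 7.57-fold lower at 5.83, 6.07 and 6.18 in OpB6D2 and 8.70, 9.13 and 9.02 in NmB6D2.

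Cdh1, which encodes E-cadherin, and Epcam, a homophilic adhesion molecule, were picked for their role after the values were seen. Cdh1 had 9.70, 9.63 and 9.66 in OpB6D2 and 10.93, 10.90 and 10.84 in NmB6D2, a 2.34-fold fall (-1.23 ± 0.06 SE, adjusted p = 1.8e-09), and Epcam had 9.74, 9.76 and 9.78 in OpB6D2 and 10.79, 10.77 and 10.76 in NmB6D2 (-1.02 ± 0.05 SE). Esrp1, an RNA-binding protein that sets epithelial splicing, fell by 2.52, with 5.53, 5.41 and 4.93 in OpB6D2 and 7.75, 7.86 and 7.82 in NmB6D2. Both lines thus kept a clear E-cadherin signal, while the OpB6D2 arrays lay below all NmB6D2 arrays, as for every gene called lower.

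**Figure D2:**
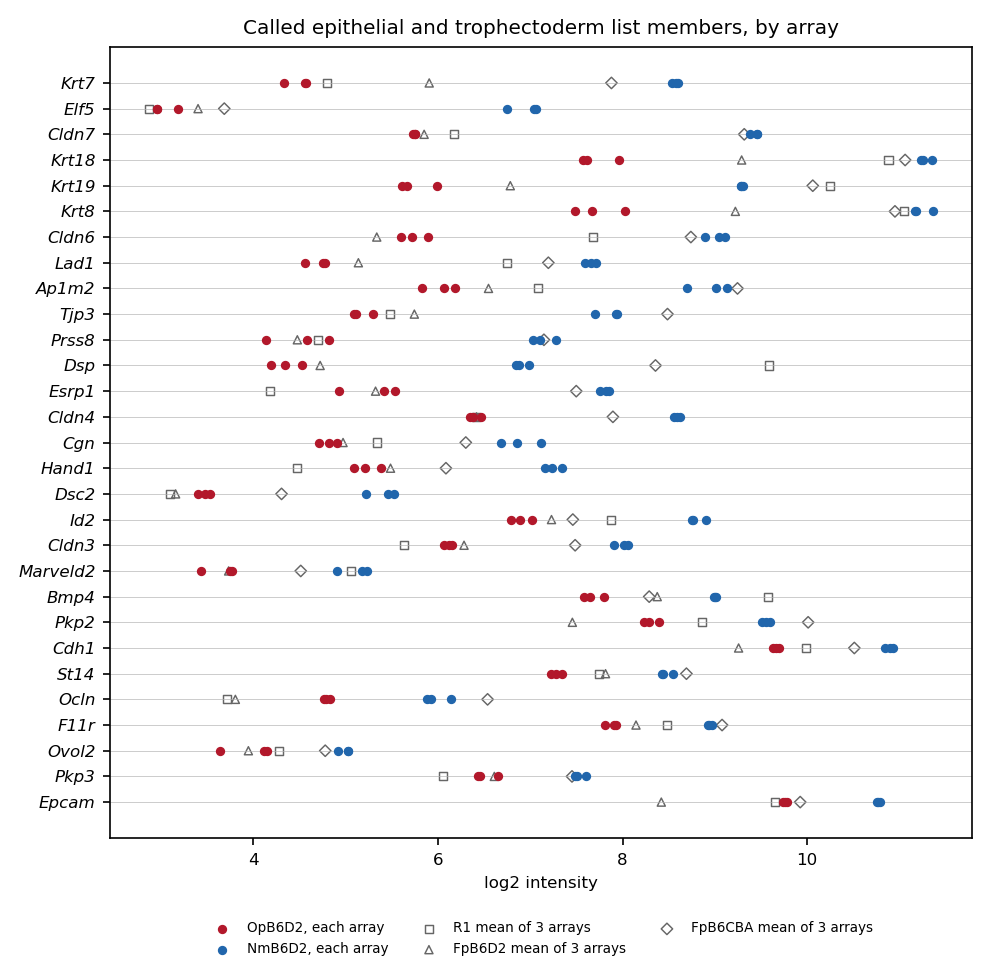
Log2 intensity (horizontal axis) of every called member of the epithelial and trophectoderm lists, a row per gene, with each OpB6D2 array in red, each NmB6D2 array in blue and open symbols for the means of the other 3 lines. In every row the 3 red points lie left of the 3 blue ones, and FpB6CBA is on the NmB6D2 side in most rows.

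Other lines in the epithelial plot show on which side of the midpoint between OpB6D2 and NmB6D2 they fall. For the 25 epithelial genes that fell, FpB6D2 was on the OpB6D2 side for 25, R1 for 17 and FpB6CBA for 2. Over all 315 autosomal genes called lower, the counts were 277 (87.9%) for FpB6D2, 221 (70.2%) for R1 and 55 (17.5%) for FpB6CBA. The keratins did not follow this count as a block. Krt19 averaged 10.25 in R1 and 10.06 in FpB6CBA, both above its mean of 9.29 in NmB6D2, while Krt7 averaged 4.80 in R1 and 7.88 in FpB6CBA. These are positions of line means from the same fit that gave the calls, and they were not tested.

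Trophectoderm is the outer epithelium of the blastocyst, from which the placenta forms. Of 20 tested genes on its list, 8 fell (40%, against 2.55% of all autosomal genes) and 0 rose, with a median of -0.46. Without the fold minimum the counts were 13 and 1. The keratins above were 4 of the 8. Elf5, a transcription factor of trophoblast stem cells, had 3.19, 2.96 and 2.96 in OpB6D2 and 7.06, 6.75 and 7.05 in NmB6D2, so it was at least 8.51-fold lower (adjusted p = 1.9e-10). It lay below 3.864 on every OpB6D2 array, and its means of 2.88 in R1, 3.40 in FpB6D2 and 3.69 in FpB6CBA were below that value too, which left NmB6D2 as the line with a clear signal. Hand1, needed for trophoblast giant cells, had 5.39, 5.10 and 5.21 in OpB6D2 and 7.24, 7.16 and 7.35 in NmB6D2 (-2.02 ± 0.11 SE). Id2, an inhibitor of basic helix-loop-helix factors, had 6.89, 7.02 and 6.79 in OpB6D2 and 8.90, 8.76 and 8.76 in NmB6D2 (-1.91 ± 0.07 SE). The transcription factors that specify the lineage were not called, with Cdx2 at -0.37, Eomes at -0.37, Gata3 at -0.22 and Tead4 at -0.18.

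Further large falls were in genes with other molecular roles, and whether they go with the epithelial falls was not tested. Slc40a1, the iron exporter ferroportin, had 4.51, 4.64 and 3.98 in OpB6D2 and 7.31, 7.28 and 7.38 in NmB6D2, a 7.71-fold fall. Cdcp1, a transmembrane glycoprotein phosphorylated by Src kinases, had 4.62, 4.74 and 5.17 in OpB6D2 and 7.82, 7.77 and 7.82 in NmB6D2 (7.78-fold). Galnt3, an enzyme that starts O-glycosylation, was at least 4.95-fold lower, with 3.32, 3.49 and 3.16 in OpB6D2 and 5.89, 6.25 and 6.38 in NmB6D2. Tmem30b, a subunit of phospholipid flippases, had 5.06, 5.17 and 5.00 in OpB6D2 and 7.92, 8.05 and 7.81 in NmB6D2 (7.21-fold). For all 4 genes FpB6D2 was on the OpB6D2 side, with means of 4.51, 4.80, 3.29 and 5.53. R1 was on that side too, at 4.46, 4.47, 3.18 and 4.74. FpB6CBA was on the NmB6D2 side for all 4, at 5.89, 7.96, 6.36 and 8.37.

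**Figure D3:**
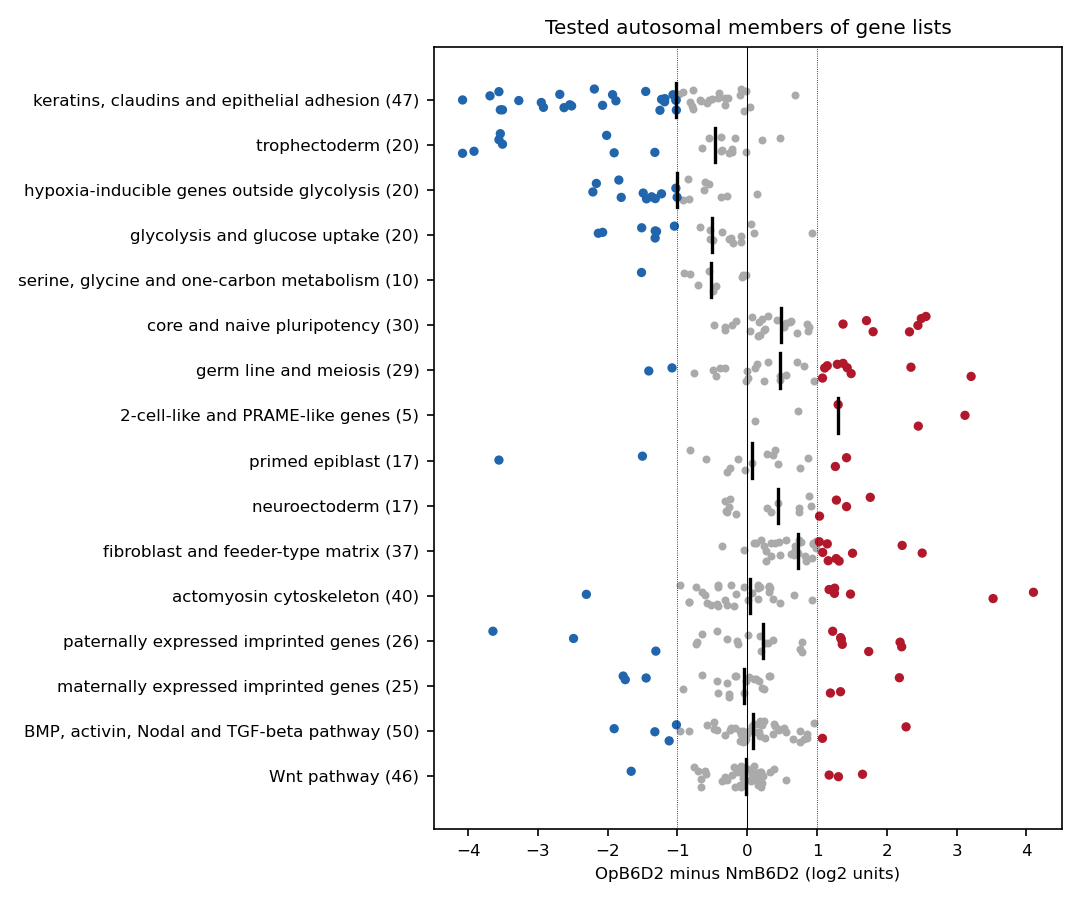
Differences OpB6D2 minus NmB6D2 in log2 units (horizontal axis) of the tested autosomal members of 16 gene lists, with the number tested in brackets, a point per gene and a vertical bar at each list's median. Blue points were called lower, red points higher and grey points were not called; dotted lines mark a 2-fold difference.

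The plot of list members places genes that respond to low oxygen beside the epithelial genes as a group with calls in 1 direction. Cells that lack oxygen stabilise HIF-1 and HIF-2, transcription factors that bind the core motif ACGTG and switch on genes for glycolysis, mitochondrial turnover and blood vessel growth. Of 20 hypoxia-inducible genes outside glycolysis, 11 fell and 0 rose, with a median of -1.01, and 19 passed the adjusted p below 0 without the fold minimum. Of 20 genes of glycolysis and glucose uptake, 7 fell and 0 rose (15 and 1 without the fold minimum), with a median of -0.51. The falls were 55% of the hypoxia list and 35% of the glycolysis list, against 2.55% of all autosomal genes. The labels give no oxygen level for the cultures.

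Ndrg1, a stress-induced gene of differentiation, had 7.88, 7.74 and 8.06 in OpB6D2 and 10.11, 10.04 and 10.17 in NmB6D2, a 4.63-fold fall (-2.21 ± 0.09 SE, adjusted p = 1.9e-10). Ero1a, an oxidase that drives disulfide formation in the endoplasmic reticulum, had 9.11, 9.10 and 9.25 in OpB6D2 and 11.32, 11.25 and 11.38 in NmB6D2 (-2.16 ± 0.07 SE). All 4 other probe sets of Ndrg1 and both of Ero1a were called lower too. Bhlhe40, a transcriptional repressor, had 8.28, 8.26 and 8.38 in OpB6D2 and 10.09, 10.11 and 10.13 in NmB6D2 (-1.81 ± 0.06 SE). Bnip3, a receptor for the removal of mitochondria, had 10.38, 10.35 and 10.50 in OpB6D2 and 11.94, 11.83 and 11.93 in NmB6D2 (-1.49 ± 0.06 SE). Adm, the vasodilator peptide adrenomedullin, had 7.57, 7.24 and 7.60 in OpB6D2 and 8.99, 8.88 and 8.87 in NmB6D2 (-1.44 ± 0.10 SE). Arrays of the lines did not overlap for these 5 genes, as for every called gene and for 60.9% of all autosomal genes. Of the enzymes that sense oxygen and mark HIF for decay, Egln1 was called lower (-1.37) and Egln3 was not (-0.92). Vegfa, the vascular growth factor, was not called at -0.62.

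Aldoc, aldolase C, had 7.40, 7.28 and 7.46 in OpB6D2 and 9.45, 9.62 and 9.47 in NmB6D2, a 4.39-fold fall (-2.13 ± 0.07 SE, adjusted p = 3.5e-11), while Aldoa, the widely expressed aldolase, was not called (-0.53). Pfkl, the liver form of the rate-setting phosphofructokinase, had 9.52, 9.58 and 9.58 in OpB6D2 and 11.05, 11.05 and 11.12 in NmB6D2 (-1.51 ± 0.05 SE), and its isoforms Pfkm and Pfkp stood at 0.05 and 0.10. Hk1, which traps glucose as glucose-6-phosphate, had 7.91, 7.94 and 8.06 in OpB6D2 and 9.30, 9.24 and 9.32 in NmB6D2 (-1.32 ± 0.09 SE). Eno2, an enolase isoform, had 5.42, 5.47 and 4.58 in OpB6D2 and 7.27, 7.22 and 7.19 in NmB6D2 (-2.07 ± 0.19 SE), with 1 OpB6D2 array well below the other 2. Slc16a3, which exports lactate, fell by 1.32 and Ldhb, a lactate dehydrogenase chain, was the highest member at 0.93, short of the fold minimum. Pfkfb3, which makes an activator of phosphofructokinase, was called at -1.30, but its other probe set gave -0.70 and was not called.

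**Figure D4:**
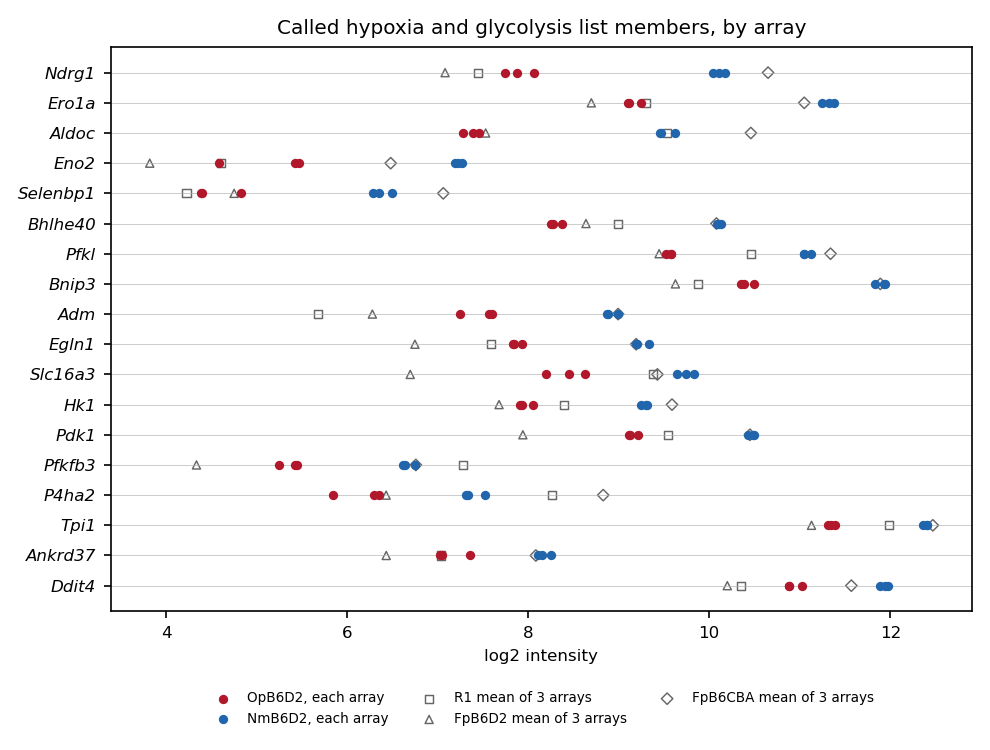
Log2 intensity (horizontal axis) of the 18 called members of the hypoxia and glycolysis lists, a row per gene, with each OpB6D2 array in red, each NmB6D2 array in blue and open symbols for the means of the other 3 lines. The red points lie left of the blue ones in every row, the FpB6CBA diamond lies on the NmB6D2 side in all 18 and the FpB6D2 triangle on the OpB6D2 side in all 18.

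In the plot of these 18 genes the hypoxia and glycolysis lists part in R1, which lay on the OpB6D2 side for 10 of the 11 hypoxia genes and for 2 of the 7 glycolysis genes. The 20 hypoxia genes had a mean level of 8.13 to 8.18 on the OpB6D2 arrays and 9.22 to 9.28 on the NmB6D2 arrays, beside 8.26 in R1, 7.71 in FpB6D2 and 9.50 in FpB6CBA.

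The promoters of the 3 largest of these falls that hold the HIF core motif are shown, because the group is defined by that response. Windows run from 250 bases before to 50 after the gene start, from RefSeq on GRCm38.p6, and capitals mark ACGTG, here read on the opposite strand as CACGT. Ero1a lies at chr14:45318523-45318822 on the minus strand, Aldoc at chr11:78322823-78323122 on the plus strand (1 of its 2 windows) and Selenbp1 at chr3:94932833-94933132 on the plus strand.
Ero1a: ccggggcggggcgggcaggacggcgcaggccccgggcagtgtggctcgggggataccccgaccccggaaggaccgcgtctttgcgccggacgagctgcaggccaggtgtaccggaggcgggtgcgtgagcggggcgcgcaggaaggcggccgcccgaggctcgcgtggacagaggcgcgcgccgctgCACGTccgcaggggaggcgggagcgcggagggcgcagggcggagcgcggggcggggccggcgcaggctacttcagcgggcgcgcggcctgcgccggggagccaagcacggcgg
Aldoc: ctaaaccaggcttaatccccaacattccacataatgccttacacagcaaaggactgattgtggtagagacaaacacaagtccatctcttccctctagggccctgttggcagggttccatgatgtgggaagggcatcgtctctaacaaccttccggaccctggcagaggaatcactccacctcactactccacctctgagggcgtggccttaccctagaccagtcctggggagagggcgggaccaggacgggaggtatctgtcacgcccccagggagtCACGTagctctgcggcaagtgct
Selenbp1: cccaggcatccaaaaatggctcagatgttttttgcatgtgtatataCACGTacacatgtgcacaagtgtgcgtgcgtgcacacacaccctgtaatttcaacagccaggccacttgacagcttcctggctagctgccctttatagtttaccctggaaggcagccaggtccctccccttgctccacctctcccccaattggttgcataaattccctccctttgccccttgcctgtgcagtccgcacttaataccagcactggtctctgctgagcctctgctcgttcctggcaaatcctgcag
Counted from the gene start, the motif begins at base -63 in Ero1a, 27 in Aldoc and -204 in Selenbp1. Selenbp1, a selenium-binding protein, had 4.82, 4.39 and 4.39 in OpB6D2 and 6.49, 6.29 and 6.35 in NmB6D2 (-1.84 ± 0.11 SE). ACGTG on either strand was found for 27 of the 36 tested hypoxia and glycolysis genes with a window (75%) and for 11 of the 16 that fell (68.8%). Among 9961 tested autosomal genes with a window the share was 28.8%, and 19.6% of all 32851 windows held it. The motif was not particular to these lists, as 14 of 24 tested germ-line genes with a window held it too (58.3%). Among the epithelial genes that fell it was found for 4 of 17 (23.5%). For 6 of the 27 hypoxia and glycolysis genes a match was part of CACGTG, the E-box treated with the germ-line genes. A match is a description of the letters and does not show that a factor binds there.

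Other metabolic lists had fewer calls, in either direction, where 5.29% of all autosomal genes tested were called. In serine, glycine and one-carbon metabolism 1 of 10 genes fell, Gldc of the glycine cleavage system, with 8.72, 8.68 and 8.57 in OpB6D2 and 10.19, 10.18 and 10.19 in NmB6D2 (-1.53 ± 0.06 SE), and all 10 differences were below 0 (median -0.51). In the amino acid and integrated stress response 3 of 19 fell (median -0.42), or 1 with averaged probe sets. These were Vldlr, a lipoprotein receptor (-2.03 ± 0.08 SE), Slc7a11, the cystine transporter (-1.17 ± 0.13 SE), and Cth, which makes cysteine (-1.03 ± 0.07 SE). Cth had 10.58, 10.55 and 10.57 in OpB6D2 and 11.61, 11.54 and 11.65 in NmB6D2. Vldlr was called with 1 of its 4 other probe sets, and the weakest of them gave -0.30. In the TCA cycle 2 of 19 rose and 0 fell, with a median of -0.13. Idh1, the cytosolic isocitrate dehydrogenase, had 9.70, 9.72 and 9.75 in OpB6D2 and 8.31, 8.40 and 8.20 in NmB6D2 (1.42 ± 0.06 SE), and Pcx, pyruvate carboxylase, had 6.53, 6.39 and 6.26 in OpB6D2 and 5.09, 5.12 and 5.15 in NmB6D2 (1.28 ± 0.07 SE). None of 17 genes of cholesterol synthesis was called, although 10 passed the adjusted p below 0, led by Stard4 at -0.70.

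The rises included naive pluripotency genes, with 7 of 30 tested genes on the list higher, 0 lower (20 and 4 without the fold minimum) and a median of 0.48. The share called higher was 23.3%, against 2.74% of all autosomal genes. The core factors were not among the 7: Pou5f1 differed by 0.56, Sox2 by 0.25 and Nanog by 0.86. Tbx3, a T-box factor that sustains self-renewal in mouse ES cells, had 8.44, 8.42 and 8.47 in OpB6D2 and 5.87, 5.63 and 6.15 in NmB6D2, a 5.9-fold rise (2.56 ± 0.11 SE, adjusted p = 3.5e-10). Prdm14, which represses DNA methyltransferases and differentiation genes, had 8.31, 8.04 and 8.29 in OpB6D2 and 5.84, 5.59 and 5.72 in NmB6D2 (2.49 ± 0.11 SE). Klf4, a zinc finger factor downstream of LIF, had 10.79, 10.73 and 10.80 in OpB6D2 and 9.37, 9.46 and 9.37 in NmB6D2 (1.37 ± 0.06 SE). Tcl1, a cofactor of the kinase Akt, had 7.85, 7.78 and 7.92 in OpB6D2 and 5.41, 5.62 and 5.55 in NmB6D2 (2.32 ± 0.07 SE). All OpB6D2 arrays lay above all NmB6D2 arrays for these 4 genes, as for every gene called higher. Manba, a lysosomal mannosidase, rose by 2.44, and the adhesion molecules Jam2 and Pecam1 by 1.80 and 1.71. The 3 other probe sets of Tbx3 ranged from 0.21 to 2.88, with 1 of them called. NmB6D2 was the lowest of the 5 lines for Tcl1, whose means were 9.03 in R1, 9.33 in FpB6D2 and 8.21 in FpB6CBA.

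Primed epiblast genes, typical of the state after implantation, were split, with 2 of 17 higher, 2 lower and a median of 0.07. That is 11.8% in each direction, against 2.74% higher and 2.55% lower over all autosomal genes. Pou3f1, the factor Oct6, had 5.65, 5.22 and 6.16 in OpB6D2 and 7.08, 7.35 and 7.10 in NmB6D2 (2.83-fold lower). Cdh2, which encodes N-cadherin, had 5.91, 6.29 and 5.42 in OpB6D2 and 4.35, 4.57 and 4.43 in NmB6D2 (1.42 ± 0.16 SE). Both genes varied by nearly 1 unit among the OpB6D2 arrays without overlapping the NmB6D2 arrays. The other fall on this list was Krt18.

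Pramel6 and Pramel7 belong to the PRAME family, whose members mark the naive state and the early mouse embryo. On a list of 2-cell-like and PRAME-like genes 3 of 5 tested genes rose (60%, against 2.74% of all autosomal genes), with a median of 1.30. Only 1 rose without the probe sets that may match several transcripts. Pramel6 had 5.96, 5.77 and 5.55 in OpB6D2 and 2.60, 2.51 and 2.81 in NmB6D2, at least 3.72-fold higher (adjusted p = 9e-11). Pramel7 had 5.64, 5.57 and 5.16 in OpB6D2 and 3.09, 2.91 and 3.04 in NmB6D2, at least 3.02-fold higher. Neither was above 3.864 on any NmB6D2 array, and their means in FpB6D2 were 8.37 and 7.74. The other probe set of each gave 0.49 and 0.61 and was not called, and copies of this family can share probe sequence. Usp17la, a deubiquitinase of the Dub family, rose by 1.30, with 5.65, 5.99 and 5.38 in OpB6D2 and 4.10, 4.63 and 4.38 in NmB6D2.

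Germ-line genes formed another group of rises. These genes serve germ cells and meiosis, and many are kept silent in somatic cells by DNA methylation of their promoters. Of 29 tested, 9 rose and 2 fell, with a median of 0.47, and without the fold minimum 16 passed above 0 and 7 below it. The called shares were 31% and 6.9%, against 2.74% higher and 2.55% lower over all autosomal genes. Dazl, an RNA-binding regulator of translation in germ cells, had 9.69, 9.78 and 9.64 in OpB6D2 and 6.45, 6.59 and 6.45 in NmB6D2, a 9.23-fold rise (3.21 ± 0.07 SE, adjusted p = 1.4e-12), and its other probe set gave 3.48. Kit, the receptor of stem cell factor, had 7.95, 8.03 and 7.84 in OpB6D2 and 5.51, 5.66 and 5.61 in NmB6D2 (2.35 ± 0.06 SE). Sycp1, of the synaptonemal complex, had 7.14, 7.31 and 7.28 in OpB6D2 and 5.78, 5.97 and 5.87 in NmB6D2 (1.37 ± 0.11 SE). Arrays did not overlap for these 3 genes, as for every called gene. Stk31, a testis kinase with a Tudor domain, had 7.05, 6.98 and 7.22 in OpB6D2 and 5.87, 5.79 and 5.14 in NmB6D2 (1.49 ± 0.15 SE). D1Pas1, a testis-expressed DEAD-box helicase gene on chromosome 1, rose by 1.43. In the opposite direction, Ddx4, the helicase Vasa, had 6.22, 5.57 and 6.26 in OpB6D2 and 7.49, 7.41 and 7.38 in NmB6D2 (-1.41 ± 0.16 SE), and the meiotic cohesin gene Stag3 fell by 1.08.

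Germ-line genes outside that list were among the largest rises. Tex19.2, a mammalian germ-cell gene, had 7.35, 7.40 and 7.17 in OpB6D2 and 4.04, 4.07 and 4.60 in NmB6D2, an 8.4-fold rise, and its relative Tex19.1 rose by 1.15. Rec114, required for meiotic DNA breaks, had 8.27, 8.14 and 8.31 in OpB6D2 and 5.88, 5.55 and 5.57 in NmB6D2 (5.96-fold). Sohlh2, a helix-loop-helix factor of spermatogonia and early oocytes, had 8.61, 8.63 and 8.54 in OpB6D2 and 5.75, 5.95 and 5.93 in NmB6D2 (6.57-fold). With Zfp57, a zinc finger protein that protects imprints, Sohlh2 was called on the oocyte and maternal-effect list. There 2 of 16 rose (12.5%, against 2.74% of all autosomal genes) and 0 fell. Zfp57 had 8.62, 9.16 and 8.85 in OpB6D2 and 7.84, 7.78 and 7.90 in NmB6D2 (1.04 ± 0.15 SE). Its call was lost without OpB6D2 replicate 4, its highest array, with a difference of 0.90.

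The E-box CACGTG is shown in the promoters of the 3 largest rises on the germ-line list that hold it, since germ-line promoters are known to carry this motif. Stk31 lies at chr6:49395289-49395588 on the plus strand (1 of its 2 windows), Sycp1 at chr3:102936051-102936350 on the minus strand and Slc25a31 at chr3:40708621-40708920 on the plus strand, with the motif in capitals.
Stk31: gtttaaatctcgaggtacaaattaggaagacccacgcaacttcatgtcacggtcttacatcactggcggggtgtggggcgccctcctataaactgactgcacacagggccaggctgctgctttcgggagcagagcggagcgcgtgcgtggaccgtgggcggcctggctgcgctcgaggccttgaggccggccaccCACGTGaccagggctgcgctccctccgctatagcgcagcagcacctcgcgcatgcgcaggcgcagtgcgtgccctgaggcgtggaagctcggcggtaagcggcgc
Sycp1: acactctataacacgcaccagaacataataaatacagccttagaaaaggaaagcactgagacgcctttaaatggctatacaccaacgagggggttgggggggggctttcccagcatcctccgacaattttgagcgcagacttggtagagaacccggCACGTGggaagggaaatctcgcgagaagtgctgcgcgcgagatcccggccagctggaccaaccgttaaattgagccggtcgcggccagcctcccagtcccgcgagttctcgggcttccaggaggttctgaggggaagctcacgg
Slc25a31: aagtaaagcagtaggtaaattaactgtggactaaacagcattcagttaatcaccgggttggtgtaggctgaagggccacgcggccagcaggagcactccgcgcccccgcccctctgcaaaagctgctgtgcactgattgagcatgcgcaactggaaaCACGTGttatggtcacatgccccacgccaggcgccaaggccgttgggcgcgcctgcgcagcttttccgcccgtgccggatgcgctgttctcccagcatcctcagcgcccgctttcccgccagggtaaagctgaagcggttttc
The motif begins at base -55, -94 and -93 from the gene start. Slc25a31, an ADP/ATP carrier of germ-cell mitochondria, had 6.33, 6.30 and 6.45 in OpB6D2 and 5.41, 5.16 and 5.19 in NmB6D2 (1.11 ± 0.12 SE). CACGTG was found for 10 of the 24 tested germ-line genes with a window (41.7%) and for 3 of the 9 that rose (33.3%), against 11.6% of tested autosomal genes and 7.15% of all windows.

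**Figure D5:**
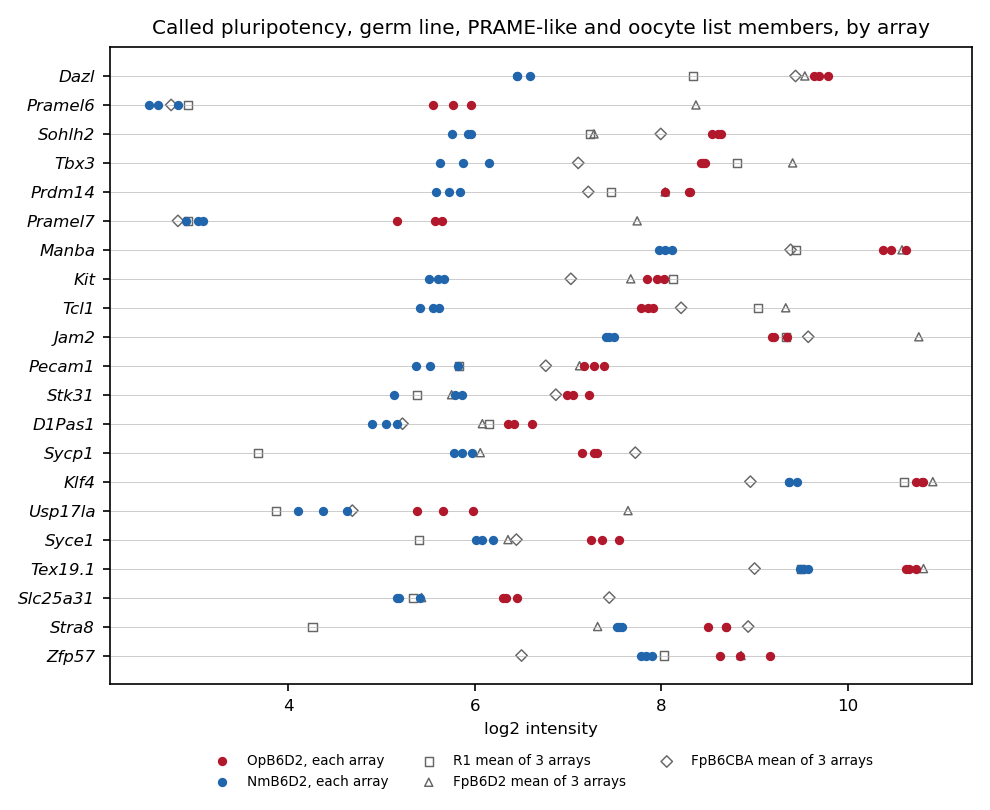
Log2 intensity (horizontal axis) of the called higher members of the pluripotency, germ-line, PRAME-like and oocyte lists, a row per gene, with each OpB6D2 array in red, each NmB6D2 array in blue and open symbols for the means of the other 3 lines. The red points lie right of the blue ones in every row, while the open symbols change place from gene to gene.

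The plot of these rises shows no single order of the other lines. For the 9 germ-line genes that rose, FpB6CBA was on the OpB6D2 side for 6, FpB6D2 for 4 and R1 for 3. For the 7 pluripotency genes the counts were 5, 7 and 6, and for the 3 PRAME-like genes 0, 3 and 0. Over all 339 genes called higher, FpB6D2 was on the OpB6D2 side for 260 (76.7%), R1 for 161 (47.5%) and FpB6CBA for 107 (31.6%). All 3 of these lines were on the OpB6D2 side for 44 of the genes called higher and 38 of those called lower. None of the 3 was on that side for 35 and 17.

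The largest rises of all came from no single pathway. Myo1f, a class I myosin known from leukocytes, had 9.19, 9.16 and 9.20 in OpB6D2 and 5.00, 5.10 and 5.15 in NmB6D2, a 17.1-fold rise (4.10 ± 0.07 SE, adjusted p = 1.7e-13). Smtnl1, a smoothelin-like regulator of contraction, had 8.61, 8.56 and 8.56 in OpB6D2 and 5.27, 5.01 and 4.88 in NmB6D2 (11.5-fold). Aqp3, a channel for water and glycerol, had 8.22, 8.23 and 8.23 in OpB6D2 and 4.95, 5.52 and 5.28 in NmB6D2 (7.89-fold). OpB6D2 and FpB6D2 were the high lines for all 3 genes, with FpB6D2 means of 8.60, 7.97 and 7.80. Ak7, an adenylate kinase of cilia, rose 6.61-fold, with 7.78, 7.79 and 7.75 in OpB6D2 and 5.20, 4.92 and 5.02 in NmB6D2. Mras, a Ras-related GTPase, rose 6.57-fold, with 7.74, 7.61 and 7.51 in OpB6D2 and 4.89, 4.93 and 4.89 in NmB6D2. Lama3, a chain of basement membrane laminin, had 8.65, 8.72 and 8.49 in OpB6D2 and 6.11, 6.18 and 5.83 in NmB6D2 (5.99-fold). Ereg, the growth factor epiregulin, was at least 4.02-fold higher, with 5.81, 5.95 and 5.85 in OpB6D2 and 3.19, 3.48 and 3.25 in NmB6D2. The remaining genes among the 15 largest rises were the adhesion gene Clmp (6.57-fold) and Aspa (5.79-fold), the enzyme aspartoacylase. A predicted gene, Gm21283, rose by 4.06 and was left out of the ranking by its name.

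Calls among imprinted genes went in both directions. Of 26 tested genes on a list of paternally expressed genes, OpB6D2 had 7 higher and 3 lower (median 0.22), with 4 higher when probe sets were averaged. Of 25 on a list of maternally expressed genes it had 3 higher and 3 lower (median -0.05). Shares called higher and lower were 26.9% and 11.5% on the paternal list and 12% each on the maternal list. Over all autosomal genes they were 2.74% and 2.55%. Gnas, which was not called, was on both lists. The parental copy read in these cells was not tested for any gene. Igf2, a paternally expressed growth factor, had 5.87, 6.18 and 6.22 in OpB6D2 and 9.74, 9.68 and 9.79 in NmB6D2 (-3.64 ± 0.16 SE), and the polycomb-related Sfmbt2 had 6.36, 6.40 and 6.27 in OpB6D2 and 8.79, 8.87 and 8.85 in NmB6D2 (-2.49 ± 0.12 SE). On the other side, Ndn, a growth suppressor of neurons, had 8.60, 8.52 and 8.69 in OpB6D2 and 6.42, 6.49 and 6.32 in NmB6D2 (2.19 ± 0.08 SE), and Mest, a hydrolase-like protein, had 9.70, 9.78 and 9.77 in OpB6D2 and 7.98, 8.11 and 7.93 in NmB6D2 (1.74 ± 0.09 SE). Ndn and Mest are read from the paternal copy in normal tissue, and both were clearly expressed on all OpB6D2 arrays. Their means were 8.77 and 9.34 in R1, 8.76 and 8.82 in FpB6D2, and 6.83 and 6.86 in FpB6CBA. For the 7 genes of the paternal list called higher, R1 was on the OpB6D2 side for 7, FpB6D2 for 4 and FpB6CBA for 2. Over all 339 genes called higher the shares were 47.5%, 76.7% and 31.6%. For the 3 called lower, the counts were 2, 3 and 2. Snrpn, paternally expressed in the Prader-Willi region, had 5.54, 5.25 and 5.46 in OpB6D2 and 5.03, 5.37 and 5.30 in NmB6D2, with overlapping arrays. Plagl1 and Impact were called higher, but their other probe sets gave 0.19 and 0.32 and were not called.

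On the list of maternally expressed genes, Grb10, an adaptor that restrains insulin signalling, had 9.43, 9.38 and 9.19 in OpB6D2 and 11.06, 11.11 and 11.17 in NmB6D2 (-1.78 ± 0.08 SE). Cdkn1c, a cell cycle inhibitor, had 5.39, 5.60 and 5.38 in OpB6D2 and 7.09, 7.24 and 7.29 in NmB6D2 (-1.75 ± 0.10 SE), and its neighbour Phlda2 fell by 1.45. Ddc, which makes dopamine and serotonin from their precursors, had 8.73, 8.65 and 8.74 in OpB6D2 and 6.62, 6.48 and 6.48 in NmB6D2, a 4.53-fold rise, and lies beside Grb10 on chromosome 11. It was counted with the maternal list, but that placement was not checked, and these arrays do not show which parental copy of Ddc is read. Ddc is among the 3 genes of that list called higher, so that count rests in part on the placement. Cobl, an actin nucleator of the same cluster, rose by 1.34, with its other probe set at 0.72. FpB6D2 was on the OpB6D2 side of both Ddc and Grb10, with means of 8.67 and 8.69. R1 was on the NmB6D2 side of both, at 7.28 and 10.76. FpB6CBA was on the NmB6D2 side for Ddc (6.87) and the OpB6D2 side for Grb10 (9.53). The receptor gene Igf2r was not called, with 7.56, 7.48 and 7.09 in OpB6D2 and 7.51, 7.54 and 7.61 in NmB6D2.

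Signalling lists held few calls, in both directions, where 2.74% of all autosomal genes tested were called higher and 2.55% lower. The shares called higher and lower were 4% and 8% on the BMP list and 6.52% and 2.17% on the Wnt list. They were 0% and 6.06% on the FGF list. On the BMP, activin and TGF-beta list 2 of 50 rose and 4 fell, with a median of 0.08. Inhbb, the activin B subunit, had 9.05, 9.33 and 9.15 in OpB6D2 and 6.88, 6.99 and 6.82 in NmB6D2 (2.27 ± 0.13 SE), but its other probe set gave 0.76 and was not called. Bmp4, a ligand that blocks neural fate, had 7.59, 7.80 and 7.65 in OpB6D2 and between 8.99 and 9.01 on the arrays of NmB6D2 (-1.32 ± 0.07 SE), and R1, with a mean of 9.57, was above both. The activin antagonist Fstl3 fell by 1.12, while the related Fstl1 rose by 1.08. On the Wnt list 3 of 46 rose and 1 fell, with a median of -0.01. Wnt7b, a ligand, had 6.05, 5.85 and 6.01 in OpB6D2 and 7.62, 7.63 and 7.64 in NmB6D2 (-1.66 ± 0.10 SE). Notum, which inactivates Wnt ligands by removing their lipid, had 6.78, 6.79 and 6.70 in OpB6D2 and 5.44, 5.50 and 5.42 in NmB6D2 (1.31 ± 0.14 SE). Wnt5a was called higher, but its other 2 probe sets were not. On the FGF and ERK list 2 of 33 fell, Fgfbp1, an FGF carrier (-2.25 ± 0.14 SE), and the early response gene Ier3 (-1.09 ± 0.08 SE). No gene of 23 on the Notch list was called, with Notch1 at 0.87 and Jag2 at -0.81.

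Markers of fibroblasts, which ES cultures can hold as feeder cells, were higher in OpB6D2 than in NmB6D2. Of 37 tested, 9 rose (24.3%, against 2.74% of all autosomal genes) and 0 fell, with a median of 0.73. Without the fold minimum 28 passed above 0 and 1 below it. The list's mean level was 7.30 to 7.69 on the OpB6D2 arrays and 6.71 to 6.83 on the NmB6D2 arrays. Its means were 7.87 in R1, 7.31 in FpB6D2 and 7.29 in FpB6CBA, so NmB6D2 was the low line. Vim, vimentin, had 12.05, 12.22 and 11.88 in OpB6D2 and 10.71, 10.81 and 10.81 in NmB6D2 (1.27 ± 0.08 SE). Ccl2, a chemokine made by stromal cells, had 8.05, 8.28 and 7.81 in OpB6D2 and 5.43, 5.59 and 5.61 in NmB6D2 (2.51 ± 0.12 SE), and its neighbour Ccl7 rose by 2.22. Collagen genes differed less, with Col1a1 at 0.73, Col1a2 at 0.55 and Col3a1 at 0.94, none of them called. The OpB6D2 array with the lowest list level, replicate 5, was also the lowest OpB6D2 array for Vim, Ccl2, Cdh2 and Wnt5a, and 13 markers rose without it. The part of fibroblast RNA in the rises of Cdh2, Wnt5a and other mesenchymal genes was not tested. Among the fibroblast genes closest to 0 were Dcn, decorin, at 0.12 and Twist1 at -0.05. Blood cell markers had 0 calls among 9 tested.

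Of 40 actin and myosin genes 6 rose and 1 fell, with a median of 0.04, while without the fold minimum 15 passed the adjusted p above 0 and 15 below it. The called shares were 15% and 2.5%, against 2.74% higher and 2.55% lower over all autosomal genes. Besides Myo1f and Smtnl1, Myo7a, a myosin of sensory hair cells, had 6.18, 6.30 and 6.13 in OpB6D2 and 4.63, 4.62 and 4.92 in NmB6D2 (1.48 ± 0.14 SE). Acta1, skeletal muscle actin, had 6.92, 7.18 and 6.99 in OpB6D2 and 9.20, 9.34 and 9.46 in NmB6D2 (-2.31 ± 0.08 SE), the sole fall on the list, which had 2 without OpB6D2 replicate 5. Neuroectoderm genes had 4 rises among 17 (23.5%, against 2.74% of all autosomal genes), with a median of 0.45. Averaged probe sets ended the calls of 2 of them, Sox1 and Ncam1. The 4 other probe sets of Ncam1 ranged from -0.15 to 1.28, with 1 called. Sox1, the earliest neural factor of the 4 rises, had 4.67, 4.92 and 4.82 in OpB6D2 and 3.09, 2.92 and 3.11 in NmB6D2, at least 1.91-fold higher. Its other probe set gave 0.16 and was not called. Pax6 and Nes, which mark neural progenitors, were not called at -0.24 and -0.27.

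Of the 46 lists, 9 had no called gene: cholesterol synthesis, fatty acid synthesis, Notch, blood cell markers, p53 targets, mitosis, histones, MHC class I and Hox genes, by limma. Small differences were common in them as well: at an unadjusted p under 0.05, with no fold minimum, 13 of 17, 10 of 14, 13 of 23, 6 of 9, 16 of 27, 21 of 26, 6 of 10, 10 of 14 and 13 of 24 genes passed, in that order. At the adjusted p 11, 10, 12, 4, 16, 20, 6, 9 and 10 of them passed. Of all autosomal genes tested 48.9% passed the adjusted p, so most of these counts do not set the lists apart. Leaving out 1 array gave 1 call among the p53 targets (NmB6D2 replicate 3) and 1 among the Hox genes (NmB6D2 replicate 2, OpB6D2 replicate 4 or 5). Mitosis genes nevertheless leaned 1 way, with 25 of 26 below 0, 19 past the adjusted p there, and a median of -0.26, and Kif23, a motor of cell division, at -0.75. For p53 targets the median was 0.16. DNA methylation and Polycomb lists each had 1 gene called higher and 1 called lower, of 21 and 31 tested. That is 4.76% and 3.23% in each direction, against 2.74% higher and 2.55% lower over all autosomal genes. Bmi1, of Polycomb complex 1, had 7.32, 7.17 and 6.99 in OpB6D2 and 5.79, 6.14 and 5.85 in NmB6D2 (1.23 ± 0.14 SE), and Pcgf5, of the same complex family, was called at -1.17 with its other probe set at -0.15. Lists covered 988 of the tested autosomal genes, of which 70 were called higher and 79 lower, so 505 of the 654 called genes were in no list.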

How the data were processed

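Biotin-labelled RNA of 5 mouse ES cell lines was hybridised to Affymetrix expression arrays, 3 per line. The authors deposited a log2 intensity for each probe set on each array, and the submitters' processing notes name RMA and the affy package, without versions. No source used here states the log base, and a range of 1.99 to 13.96 with no missing value was read as log2. The values were used as deposited.

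Of 45101 probe sets, 34945 carried 1 gene symbol in the array annotation, which gave 18193 genes, and 18032 of these were matched by Entrez ID and 113 by symbol to a GRCm38.p6 gene table for current symbols and chromosomes. Each gene was represented by its brightest probe set, by mean across arrays. Genes had to reach 3.864 (the median of all values) on 3 or more arrays to be tested. OpB6D2 minus NmB6D2 was a contrast of a linear model with 1 mean per line, fitted to the 15 arrays in limma 3.58.1 under R 4.3.3, with Benjamini-Hochberg adjustment over 12813 genes, sex-linked genes included. Where a line's mean was below 3.864, the fold is a lower bound against that value.

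The comparison, its 46 gene lists and the genes named were chosen with earlier results of these data known. The genes named are the 15 largest called rises and falls, without clone and predicted names, up to 6 called members per list (or the 3 largest differences where none was called), measured imprinted genes, ES cell checks and called genes in 6 chromosome stretches. Genes named beyond this, such as uncalled relatives of a called gene, were chosen after their values were seen. In simulated data of 12813 genes, 100% of 100 genes changed by 1.5 log2 units and 89% of 100 changed by 1.1 were called, and 0 of 12613 unchanged genes. Of the unchanged genes 11 had an adjusted p under 0.05 by limma. Unchanged genes had the same mean in every line and only the spread between arrays, so they could hardly reach 2-fold. Variation between derivations or cultures was not simulated, so the false call rate for such variation is not known.

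Alternatives covered the filter, the probe set rule, scaling, the arrays in the fit, the variance model, a replicate block, the call rule and leaving out each array. The precision is limited by the number of arrays. OpB6D2 and NmB6D2 share only 1 replicate number, whose arrays had correlated deviations of 0.06, so the numbers were not taken as pairs. Plots were drawn with matplotlib 3.10.9.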

Additional observations from a re-analysis of the deposited data

How the results depend on the processing

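The counts of 339 genes called higher and 315 called lower in OpB6D2 depended mainly on the fold minimum. They were 3180 and 2871 with no fold minimum, 1058 and 931 at 1.5-fold, and 52 and 51 at 4-fold, as fewer or more genes can pass by construction. With each probe set tested as its own feature, 519 were called higher and 549 lower, which counts a gene more than once. Averaging all probe sets of a gene gave 246 and 240 and shared 461 of the 654 calls. Leaving out each array in turn gave 338 to 364 higher and 316 to 323 lower, and median centring gave 313 and 350. With a replicate block over the 13 arrays whose titles carry a number, the counts were 377 and 328.

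Of 145 called genes among those named by the rule, 112 kept the call in all 21 settings other than the 3 fold minimums, and in none of the settings run did the direction of any of the 145 reverse. Averaged probe sets ended 21 calls, those of Pfkfb3, Vldlr, Slc7a11, Plagl1, Peg3, Impact, Mirg, Wnt5a, Sox1 and Pcgf5 among them, and leaving out probe sets that may match several transcripts ended those of Pramel6, Pramel7, Plagl1 and Snai2. The block, together with leaving out the 2 arrays without a number, ended the calls of Peg10, Bmp8b, Stra8, En2 and Myo5a. Leaving out OpB6D2 replicate 4 ended those of Zfp57, Bmp8b and Srgn. Of the called genes, 74 had a line below 3.864, where intensity near background limits the fold.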

Other observations

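Calls were not spread evenly over the autosomes, although no chromosome had a median difference beyond -0.08 to 0.07. On chromosome 4, 5 of 810 tested genes were called higher and 25 lower, and on chromosome 15 the counts were 6 and 18 of 515, where Krt7, Krt8 and Krt18 lie close together. Chromosome 18 had the highest share of calls (7.69%), with 20 higher and 4 lower of 312, and chromosome 8 the lowest (2.73%). Of stretches of 25 neighbouring tested genes, the highest median was 0.40, on chromosome 16 between Cmss1 and Mrpl39, with 4 genes called higher. These were Filip1l, Pros1 (protein S, an anticoagulant), Zfp654 and D16Ertd472e. On chromosome 6 a stretch from Gprc5a to Cmas had a median of 0.39, with Eps8, an actin regulator, at 2.03, Emp1 at 1.20 and Mgp at 1.16, beside Gprc5a at -1.44. A stretch on chromosome 7 from Zfp28 to Lig1 (median 0.36) held the imprinted Peg3 and Zbtb45. The lowest medians were -0.45 on chromosome 14, between Stc1 and Xpo7, with Pdlim2 at -1.98, -0.35 on the same chromosome, with Khnyn and Gjb2, and -0.30 on chromosome 10, with Fstl3 and Abca7. These stretches were picked for their medians among many overlapping ones and have no test.

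Gene families were grouped by the start of the symbol after the values were seen, and their calls can be read against 5.29% of all autosomal genes tested. Of 275 tested Zfp genes, which encode zinc finger proteins, 9 were called higher and 2 lower, with a median of 0.13 (4% called). Among 231 solute carriers (Slc) 5 were called higher and 9 lower (6.06%). Cytochrome P450 genes (Cyp) had 3 of 20 called higher, Cyp11a1, Cyp7b1 and Cyp1b1, and 1 lower, Cyp2s1 (20%). Keratins (Krt) had 4 of 22 called lower (18.2%), the 4 simple-epithelial ones, and myosins (Myo) had 3 of 20 called higher (15%), Myo1f, Myo7a and Myo5a. No gene was called by limma among 25 whose symbols start with Rps, 47 with Mrpl, 29 with Mrps or 44 with Eif. These prefixes are used for small ribosomal proteins, the mitochondrial ribosome and translation initiation factors. The groups follow the symbol alone and can hold other genes. At an unadjusted p under 0.05 with no fold minimum, 8 Rps, 32 Mrpl, 18 Mrps and 19 Eif genes passed. The adjusted p was passed by 7, 30, 16 and 17 of them, against 48.9% of all autosomal genes tested.

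Markers of other lineages were called in both directions. Of 25 primitive endoderm genes 2 were called higher and 1 lower, with Thbd, thrombomodulin, at 2.00. Of 16 mesendoderm genes 2 were called higher and 1 lower, Hand1. Of all autosomal genes tested, 5.29% were called. Gbp2, an interferon-induced GTPase, was at least 2.95-fold lower and the 1 call of 21 on the interferon list.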
